A study of Mus musculus with 98 samples.

Results

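Glucocorticoids are steroid hormones that enter cells and bind the glucocorticoid receptor, encoded by Nr3c1, which then moves to the nucleus, binds DNA and changes transcription. A small set of genes responds to the hormone in many tissues, and thymocytes and other thymic cells have long been known to be sensitive to it. The 9 genes described here are Nr3c1 itself, Fkbp5, Zbtb16, Tsc22d3, Per1, Klf9, Sgk1, Mt1 and Mt2. They are a list of names chosen with earlier results of these data known, and not an independent set. All 9 were found among the 18452 gene symbols shared by the newborn single-cell table, the age series table and the bulk table. Fkbp5 encodes a co-chaperone of the receptor complex that limits hormone binding. Zbtb16 encodes the zinc finger factor PLZF, Klf9 a Krüppel-like factor and Per1 a repressor of the circadian clock. Tsc22d3 encodes GILZ, an anti-inflammatory leucine zipper protein, and Sgk1 a kinase that regulates ion transport. Mt1 and Mt2 encode metallothioneins, small metal-binding proteins that metals also induce. None of the samples was labelled as treated with a hormone.

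The series holds 98 mouse samples in 3 sets. The first set is 6 droplet single-cell libraries of sorted Ter119-CD45- thymic stroma at birth (P0), fixed with RNAprotect before capture: 3 from wild-type (WT) mice and 3 from littermates labelled Tbx1+/-Crkl+/- (HET), in which the Tbx1 allele is a lacZ knock-in and 1 copy of Crkl is null. The second is 8 libraries of fresh Ter119-CD45-EpCAM- nonepithelial thymic stroma (NETS) from WT embryos and mice, sampled in single libraries at E12.5 and E13.5 and in pairs at E16.5, at P0 and at 4 weeks (W4). The third is 84 bulk libraries of WT cells sorted by surface markers, 6 per population and age, with 6 populations sampled at P0 and 4 weeks and 2 further medullary epithelial populations, mTEChi and mTEClo, at 4 weeks only. The 4 NETS populations of the third set are CD31+ (endothelium), Ly51+gp38- (mural cells, that is pericytes and smooth muscle), gp38+CD26+ (capsular fibroblasts) and gp38+CD26- (mainly medullary fibroblasts, with some capsular CapFb1 cells per the study), and the other 2 are cortical and medullary thymic epithelial cells (cTEC and mTEC).

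Depth differed between the sets. The newborn HET libraries held 1687 to 5328 cells with a median of 2391 to 2551 UMIs (distinct captured transcripts) per cell, the newborn WT libraries 2375 to 5661 cells with 2577 to 4686, and the age series 1997 to 6587 cells with 10005 to 14031. Bulk libraries held 5785352 to 15852166 gene counts, except for 1 gp38+CD26+ library at 4 weeks with 25702, which was left out. No more than 0.275% of the barcodes of any library were shared with another. Crkl was not lower in the HET libraries (a mean over subtypes of 22.7 to 26.4 CPM, counts scaled to a total of 1000000, against 17.8 to 28.1 in WT) and Tbx1 was close to 0 in both, so RNA levels did not check the genotype labels, and every direction below is between libraries as labelled. Erythroid transcripts stood apart in HET replicate 1 (683 CPM summed over 6 genes) and replicate 2 (383), against 20.8 to 78.5 in the other 4 libraries. The E16.5 replicates were closer to each other in 3 of the 4 subtypes compared (chi-square per gene 1.38 to 1.59, and 7.30 in capillary endothelium) than the pairs at P0 (3.49 to 7.28) and W4 (2.54 to 3.58), but still above counting noise. In the bulk set, endothelial markers summed to 1916 to 5531 CPM in CD31+ cells at P0 and fibroblast markers to 19896 to 55200 CPM in the gp38+ populations, as their labels say.

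Promoter sequence is shown for Sgk1, which held a motif of the receptor, and for the metallothioneins, which metals induce. RefSeq promoters (GRCm38.p6) were found for 7 of the 9 members in 15 windows, and the 250 bases before each start were searched on both strands. The palindromic glucocorticoid response element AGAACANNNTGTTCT was in 3 of 32851 promoters (0.00913%), and 1 of the 3 was a promoter of Sgk1, 1 of 6 searched for that gene. This window, chr10:21993640-21993879 on the plus strand, lies inside the Sgk1 gene. The metal response element core, TGCACNC or TGCGCNC, was in 21.4% of all promoters. It matched once in the Mt1 window (chr8:94178839-94179078, plus strand) and at 3 places in the Mt2 window (chr8:94172368-94172607, plus strand), and once in a Per1 window. In the sequences below, capitals mark the response element in Sgk1 and the metal response cores in Mt1 and Mt2.
Sgk1: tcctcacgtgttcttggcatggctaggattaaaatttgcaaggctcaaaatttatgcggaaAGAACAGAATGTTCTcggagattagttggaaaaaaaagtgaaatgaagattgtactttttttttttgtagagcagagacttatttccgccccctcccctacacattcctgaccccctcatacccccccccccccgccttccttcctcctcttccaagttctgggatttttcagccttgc
Mt1: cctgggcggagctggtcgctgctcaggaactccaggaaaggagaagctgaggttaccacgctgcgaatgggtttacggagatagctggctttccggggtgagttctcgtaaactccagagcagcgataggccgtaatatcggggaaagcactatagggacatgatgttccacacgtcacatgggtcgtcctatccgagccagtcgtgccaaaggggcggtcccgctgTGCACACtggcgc
Mt2: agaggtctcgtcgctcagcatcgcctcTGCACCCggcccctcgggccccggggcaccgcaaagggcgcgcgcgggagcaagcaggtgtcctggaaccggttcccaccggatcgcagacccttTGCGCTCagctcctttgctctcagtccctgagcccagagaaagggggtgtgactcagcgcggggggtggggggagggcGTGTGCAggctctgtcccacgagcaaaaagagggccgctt
The circadian E-box CACGTG, in 6.02% of promoters, was present in 1 window each of Fkbp5, Per1 and Sgk1. No response element of this exact form was found before the starts of Fkbp5, Tsc22d3, Per1 or Klf9, which says only that these letters are not in these windows.

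The first comparison asked how the members stood in HET against WT newborn stroma in each of the 18 subtypes with at least 20 cells in every library: 12 of the NETS, 5 epithelial and the cells labelled Thy (thymocytes). Since this contrast was part of the rule that chose the genes, its values are a description, with no p-value for a member. Zbtb16, Fkbp5, Per1 and Klf9 had a higher mean in HET in at least 17 of the 18 subtypes. Sgk1 did in 16, Tsc22d3 in 15, Mt1 and Mt2 in 14 each and Nr3c1 in 5. Levels are CPM of the UMIs summed per library and subtype.

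Zbtb16 had the largest ratio. Averaged over the 18 subtypes, its level was 72.1, 44.3 and 43.4 CPM in HET replicates 1, 2 and 3 and 14.1, 5.31 and 15.1 in WT, a ratio of means of 4.64, and the lowest HET library was 2.88 times the highest WT library. The HET mean was higher in 18 of 18 subtypes, and the 3 HET libraries lay above the 3 WT libraries in 13, of which 11 were among the 12 NETS subtypes and 1 among the 5 epithelial ones. In capillary endothelium (EnC) Zbtb16 stood at 138.5, 72.1 and 50.9 CPM in HET and at 9.43, 5.21 and 17.2 in WT. Pericytes (Pc) had 121, 70.4 and 66.8 CPM against 21.0, 10.3 and 22.5. In capsular fibroblasts CapFb1b the values were 69.7, 68.996 and 52.9 CPM against 14.0, 10.1 and 15.2. The level was thus several times higher in HET in endothelium, pericytes and fibroblasts alike. Epithelial subtypes were low in both, at 11.7 ± 6.40 CPM in HET against 4.26 ± 1.96 in WT (mean ± SD of the subtype mean, n = 3), while NETS subtypes averaged 71.8 ± 23.5 against 15.2 ± 7.24. These levels rest on 1067 UMIs of Zbtb16 in all HET libraries and 514 in WT.

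For Fkbp5, the mean over subtypes was 143.5, 135.35 and 133.6 CPM in HET and 88.0, 65.3 and 75.8 in WT, a ratio of 1.80, with no overlap between the genotypes. Its HET mean was higher in 17 of 18 subtypes, Thy being the exception at 114 against 118 CPM, and the libraries did not overlap in 14. Examples were CapFb1a, at 189, 171 and 188 CPM in HET against 56.1, 76.5 and 80.4 in WT, and mature medullary epithelium (MmTEC), at 119.1, 115.5 and 115.5 against 62.5, 70.9 and 46.2. In vascular smooth muscle (VSM), its lowest subtype, Fkbp5 had 52.3, 90.5 and 78.8 CPM against 40.1, 17.9 and 23.6. In epithelium Fkbp5 averaged 136.03 ± 9.51 CPM in HET and 91.8 ± 10.5 in WT, a ratio of 1.48, and in NETS 140.05 ± 10.8 and 66.4 ± 10.3, a ratio of 2.11.

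**Figure D1:**
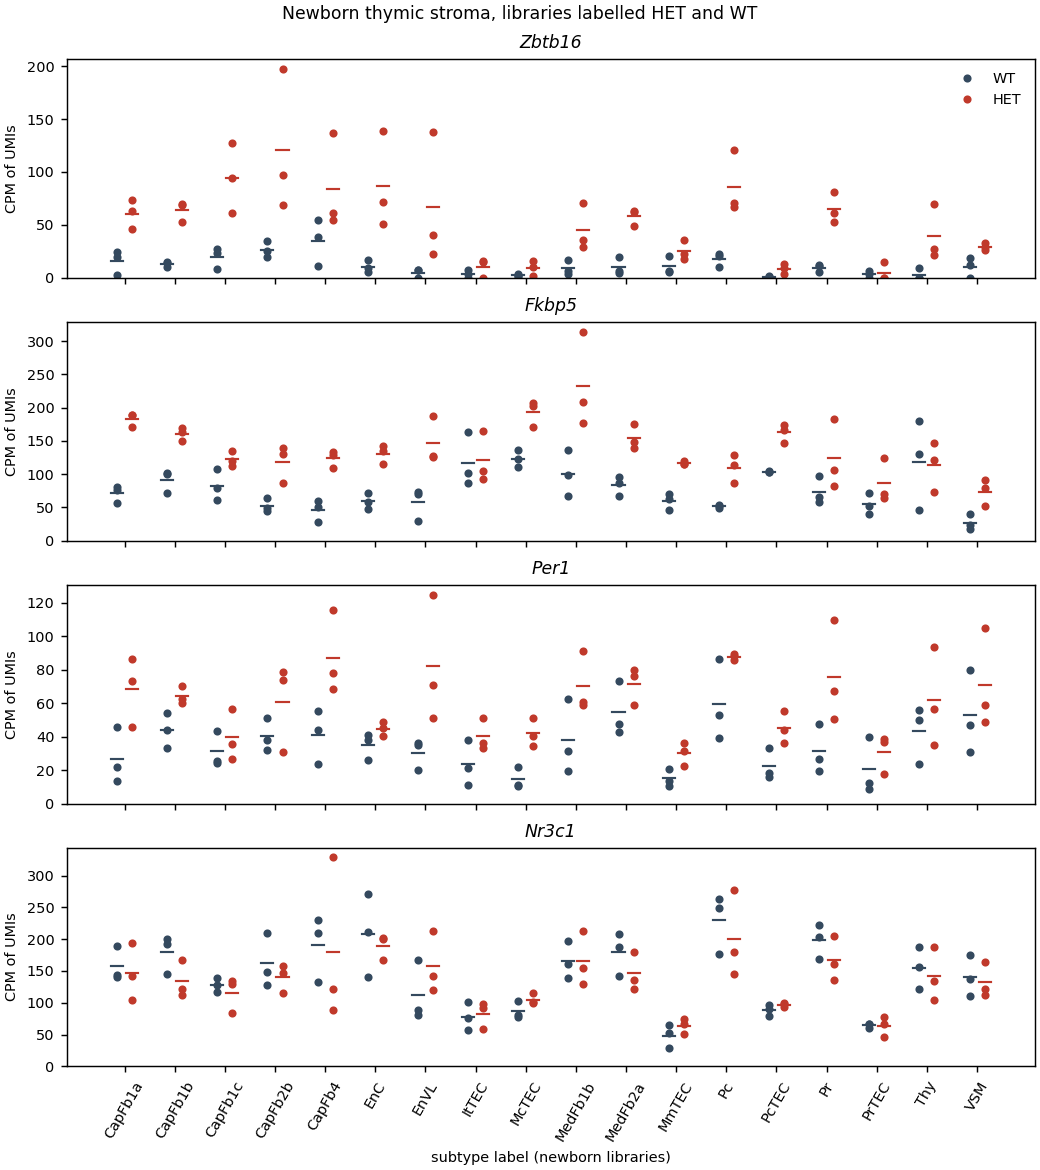
Level of Zbtb16, Fkbp5, Per1 and Nr3c1 (y axis, CPM of UMIs) in each newborn subtype (x axis), with 1 point per library, WT in dark blue and HET in red, and bars at the means of 3 libraries. For Zbtb16 the HET points lie above all WT points in 13 of 18 subtypes and for Fkbp5 in 14, whereas the Nr3c1 points overlap in every subtype.

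Per1 averaged 63.2, 55.5 and 60.3 CPM in HET and 48.6, 28.8 and 26.6 in WT, a ratio of 1.72, and its HET mean was higher in 18 of 18 subtypes, without overlap in 8. In mature cortical epithelium (McTEC) Per1 stood at 51.4, 34.6 and 40.1 CPM against 22.0, 10.4 and 11.3. Its ratio was 1.96 in epithelium and 1.70 in NETS. Klf9 averaged 348, 262 and 244 CPM against 248, 150.9 and 204, so that HET replicate 3 fell just below WT replicate 1, and its HET mean was also higher in all 18 subtypes, without overlap in 4. For both genes WT replicate 1 was the WT library nearest to HET.

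The remaining members overlapped between genotypes in nearly every subtype. Sgk1 averaged 173.3, 159.6 and 91.4 CPM in HET against 130.5, 82.1 and 112.96 in WT and overlapped in every subtype, including EnC, where it was most abundant (1101, 938 and 596 CPM against 691, 458 and 652). Tsc22d3 averaged 95.2, 131.04 and 62.8 over the 12 NETS subtypes against 49.7, 66.5 and 92.8, and did not overlap in 2 subtypes. The receptor Nr3c1 averaged 160.5, 118.8 and 125.9 against 165.2, 148.7 and 114.95, with a higher HET mean in only 5 of 18 subtypes. Mt1 averaged 595, 1219 and 658 CPM against 542, 761 and 983, and Mt2 179.8, 327 and 192.4 against 160.8, 224.5 and 235.9. For both metallothioneins HET replicate 2 was the highest library, and HET replicates 1 and 3 lay within the WT range.

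**Figure D2:**
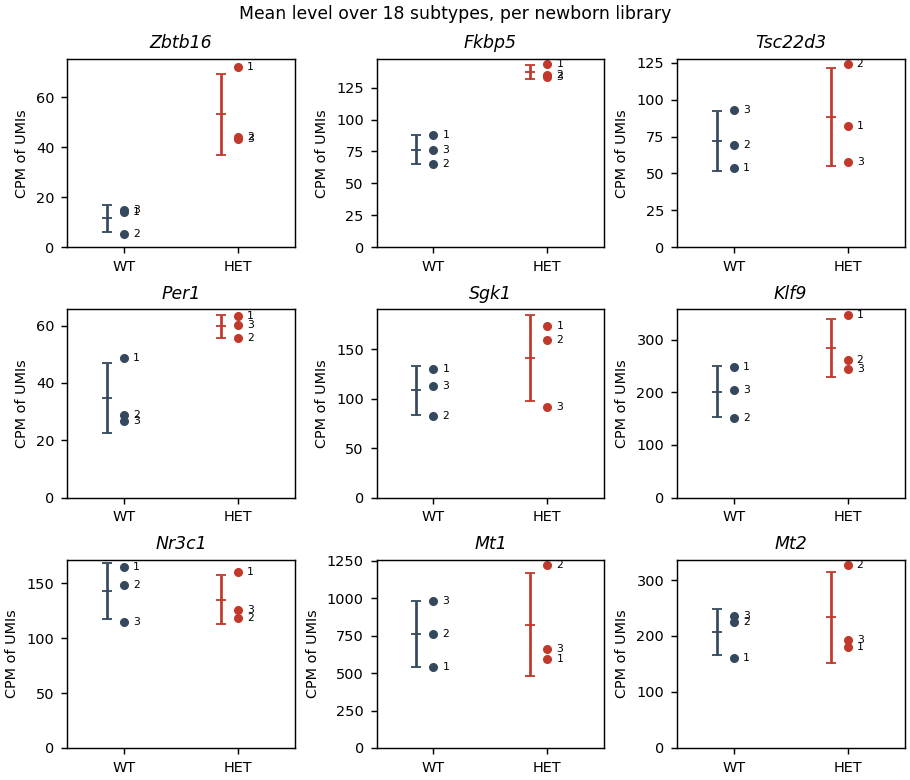
Mean level of each of the 9 genes over 18 newborn subtypes (y axis, CPM of UMIs), with 1 numbered point per replicate for WT and HET and bars for the mean ± SD of 3 libraries. The groups are apart for Zbtb16, Fkbp5 and Per1 and overlap for the other 6 genes.

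Over the 162 pairs of a member and a subtype, 147 had enough counts for the fit across all genes (edgeR's quasi-likelihood test with Benjamini-Hochberg adjustment within each subtype). It called 6 pairs higher in HET and 0 lower, where over all genes 0.0352% of pairs were called higher and 0.0129% lower. Without overlap, 38 of the 147 pairs were higher and 0 lower, where all genes had 5.03% and 5.72%, and the median log2 difference was 0.47 against 0.01 over all pairs. Zbtb16 held 5 of the calls and 10 of the pairs without overlap, and passed the filter on low counts in only 10 of 18 subtypes. With a mean of 11.5 CPM in WT against 53.3 in HET, it may have passed through the HET libraries alone. The genes were chosen by a rule that uses the measured values of this contrast, so nothing is read from these counts. Erythroid transcripts, called higher in 6 of 21 pairs, summed to 683 and 383 CPM in HET replicates 1 and 2. HET replicate 3, at 78.5, was near the WT libraries (20.8 to 77.1). The median UMI count per cell was 2391 to 2551 in HET and 2577 to 4686 in WT. The part of erythroid RNA and of depth in the member values was not tested.

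Other genes known to be induced by glucocorticoids were given beside the members. Of 29 such genes, 336 pairs were tested, 0 were called, and the libraries did not overlap in 43 pairs higher in HET and in 9 lower, with a median log2 difference of 0.14. Circadian clock genes had 16 pairs higher without overlap and 2 lower (median 0.37), and hypoxia genes 12 and 1 of 66 (median 0.40). Immediate early and dissociation-induced genes went the other way, with 8 higher and 18 lower of 201 (median -0.12), and their summed level was 7656 to 9904 CPM in HET against 8900 to 9795 in WT. Partners of the receptor and enzymes of local steroid activation had 6 pairs in each direction of 171, and metal and oxidative stress genes 9 and 3 of 85. None of these lists held a call. Thymocyte markers summed to 63.1 to 198 CPM in HET and 64.8 to 85.6 in WT, macrophage markers to 23.5 to 43.7 and 25.6 to 31.1, fibroblast markers to 2028 to 2793 and 2724 to 4053, and mural markers to 408 to 561 and 683 to 753, and the part of these in the member values was not tested. Steroid synthesis genes were too low to be tested in more than 2 pairs.

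The newborn WT libraries were fixed and those of the age series were fresh, so P0 levels of both are only set side by side over 12 shared NETS subtypes. Fkbp5 averaged 74.9, 54.9 and 69.4 CPM in the fixed WT libraries and 25.6 and 29.5 in the fresh P0 libraries, with 152.5, 133.8 and 133.8 in the fixed HET libraries. Per1 averaged 55.4, 33.9 and 31.8 in fixed WT and 19.7 and 23.7 in fresh P0. For Zbtb16 the fixed WT libraries stood at 18.5, 6.91 and 20.2 and the fresh ones at 6.49 and 16.1, and for Nr3c1 at 205, 171.9 and 135.5 against 154.9 and 151.9. Y-linked RNA stood apart in fresh P0 replicate 2, with Ddx3y at 53.6 CPM, against 1.87 in fresh P0 replicate 1 and 0 to 1.42 in the newborn libraries. Replicate 1, low in Ddx3y like the newborn libraries, had Fkbp5 at 25.6 CPM and Per1 at 19.7. Fixation, depth and sort differ between the sets and cannot be told apart, and the part of sex was not tested.

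In WT NETS over development, most of the members were lower at E12.5 and E13.5 than later. The values are means over the same 11 subtypes per library (CapFb1a, CapFb1b, CapFb2a, CapFb2b, CapFb3, EnC, EnVL, MedFb1a, Pc, Pr and VSM), the rule named these levels, and they are a description with no test. Zbtb16 was at 0.896 CPM at E12.5 and 0.228 at E13.5, reached 14.0 and 14.6 in the E16.5 libraries, and stood at 5.17 and 13.9 at P0 and 4.89 and 5.89 at W4. Neural crest cells (NC), which are not among the 11, had 13.55 CPM of Zbtb16 at E12.5, or 42 of its 82 UMIs in that library, and 3.71 CPM at E13.5. Mt1 stood at 6.77 and 26.4 CPM at E12.5 and E13.5, at 391 and 381 at E16.5, at 423 and 549 at P0 and at 373 and 395 at W4. Mt2 followed Mt1, from 0.583 and 2.995 to 57.8 and 55.8, then 80.8 and 110, then 61.4 and 48.4.

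Klf9 and the receptor were higher at each later age. Klf9 went from 13.2 and 16.9 CPM at E12.5 and E13.5 to 82.04 and 85.9 at E16.5, 131.97 and 169 at P0 and 274 and 269 at W4. Nr3c1 went from 36.5 and 53.9 to 99.0 and 102, then 154 and 150, then 232 and 201. For both genes the libraries of each age from E16.5 on lay above all earlier ones, while E12.5 and E13.5 have no replicate. Per1 was highest in between, with 8.72 and 9.87, then 24.2 and 23.3, then 18.7 and 21.5, and only 9.32 and 9.84 at W4. Fkbp5 went from 15.3 and 13.7 to 27.7 and 27.8 and stayed near that level (23.3 and 26.1 at P0, 28.9 and 32.6 at W4). Tsc22d3 went from 83.2 and 63.6 at the earliest ages to 120 and 117 at W4, and Sgk1 was highest at P0 (122.01 and 133), after 60.1 and 63.2 at the earliest ages and before 87.8 and 81.2 at W4.

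**Figure D3:**
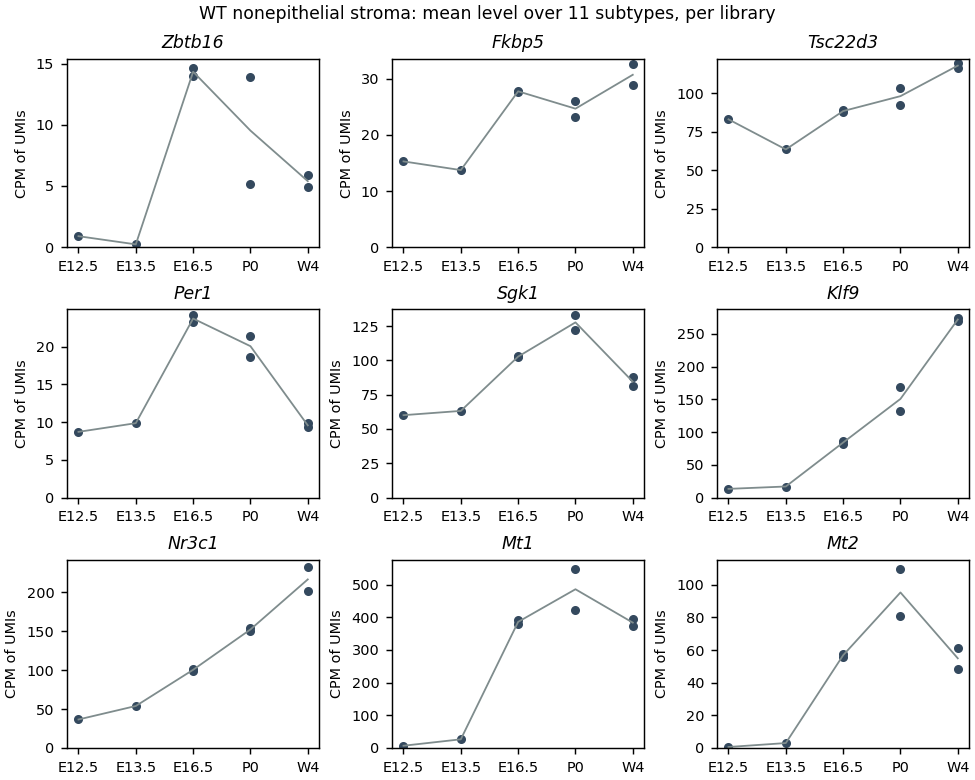
Level of each of the 9 genes in WT nonepithelial stroma (y axis, CPM of UMIs, mean over 11 subtypes) at 5 ages (x axis), with 1 point per library and a line through the means. Klf9 and Nr3c1 are highest at W4, Per1 is highest at E16.5 and lower at W4, and the means of Mt1, Mt2 and Zbtb16 over these 11 subtypes, which leave out neural crest cells, are lowest at E12.5 and E13.5.

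Within single subtypes, the E16.5 libraries lay above those of E12.5 and E13.5 in 11 of 11 subtypes for Klf9, Nr3c1, Per1 and Mt1 and in 8 of 11 for Fkbp5. No count is given for Mt2 and Zbtb16, which passed the filter on low values in fewer subtypes. Of all gene and subtype pairs 24.6% were higher without overlap and 47.3% lower. Sgk1 was mixed, higher in 2 and lower in 5 of 11 although its mean over subtypes was higher, and Tsc22d3 higher in 5 and lower in 3. Between P0 and W4, Klf9 and Nr3c1 were each higher without overlap in 15 of 17 subtypes and lower in 0, and Per1 was lower in 15 and higher in 0, where all pairs had 33.8% higher and 30.9% lower. Tsc22d3 was higher in 9 and lower in 1, Fkbp5 higher in 8 and lower in 4, and Sgk1 higher in 2 and lower in 8. Zbtb16 again has no count, since it passed the filter on low values in only 14 of the 17. Immediate early and dissociation-induced genes moved with age too, from a sum of 3669 and 6284 CPM at E12.5 and E13.5 to 16139 and 18580 at P0 and 11062 and 12625 at W4, and their part in these values was not tested.

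Levels also differed between subtypes, compared here where a library held at least 20 cells. Sgk1 had its highest means in EnC and EnVL, the capillary and the venous and lymphatic endothelium, at all 5 ages. At P0 it had 570 and 603 CPM in EnC, 394 and 448 in EnVL and 239 and 278 in arterial endothelium (EnA). The next subtype, MedFb1a, had 85.4 and 85.9. Arterial endothelium was not among the highest at E13.5, with 44.97 CPM of Sgk1. The 3 endothelial subtypes did not overlap at P0, but at W4 EnC (269 and 343) overlapped EnVL (242 and 277), which overlapped EnA (196 and 244). At E16.5 EnVL (393 and 420) also overlapped EnA (370 and 428). Klf9 had its highest means in mural cells, with 229 and 346 CPM in VSM and 201 and 281 in Pc at P0, which overlapped each other, NC (169 and 272) and CapFb1c (176 and 232), and lowest in EnC (53.4 and 78.6). Nr3c1 was highest in Pc at W4 (316 and 346 CPM), above MedFb1b (274 and 307), and lowest in EnVL (95.3 and 107.7).

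At P0 and W4 Mt1 had its highest means in the capsular fibroblasts CapFb1c and CapFb1b. It stood at 1601 and 2072 CPM in CapFb1c and at 1352 and 1591 in CapFb1b at P0, against 19.6 and 21.7 in EnA. Mt2 had the same 3 highest subtypes at P0, CapFb1c, CapFb1b and MedFb1a. From P0 to W4 Mt1 parted by cell type. In Pc it went from 471 and 510 CPM to 84.6 and 88.7, in VSM from 279 and 310 to 35.9 and 48.2, and in MedFb2a from 384 and 419 to 80.9 and 114.9. In CapFb3 it went from 240 and 576 to 626 and 1045 and in CapFb4 from 194 and 285 to 433 and 561. Mt1 was thus lower at W4 without overlap in 9 of 17 subtypes, namely Pc, VSM, EnC, EnVL, MedFb1a, MedFb1b, MedFb2a, CapFb1b and CapFb1c, and higher in CapFb2a, CapFb2b, CapFb3 and CapFb4. Mt2 was lower in 11 and higher in 3. Of all gene and subtype pairs 33.8% were higher and 30.9% lower without overlap, so higher subtypes were no more frequent for Mt1 and Mt2 than for all genes. Fkbp5 had its highest mean in medullary fibroblasts, with 45.6 and 46.3 CPM in MedFb1b at P0 and 54.3 and 58.6 in MedFb2a at W4, where it overlapped Pr (36.6 and 71.8), MedFb1b (48.1 and 59.4), and lay just above EnVL (52.5 and 54.3), and lowest at P0 in VSM (6.92 and 9.27). Zbtb16 was highest in CapFb4 at E16.5 (27.0 and 27.4 CPM) and at W4 (20.5 and 21.4), and no UMI was found in EnVL at W4, where 3 UMIs would be 2.81 and 3.62 CPM.

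**Figure D4:**
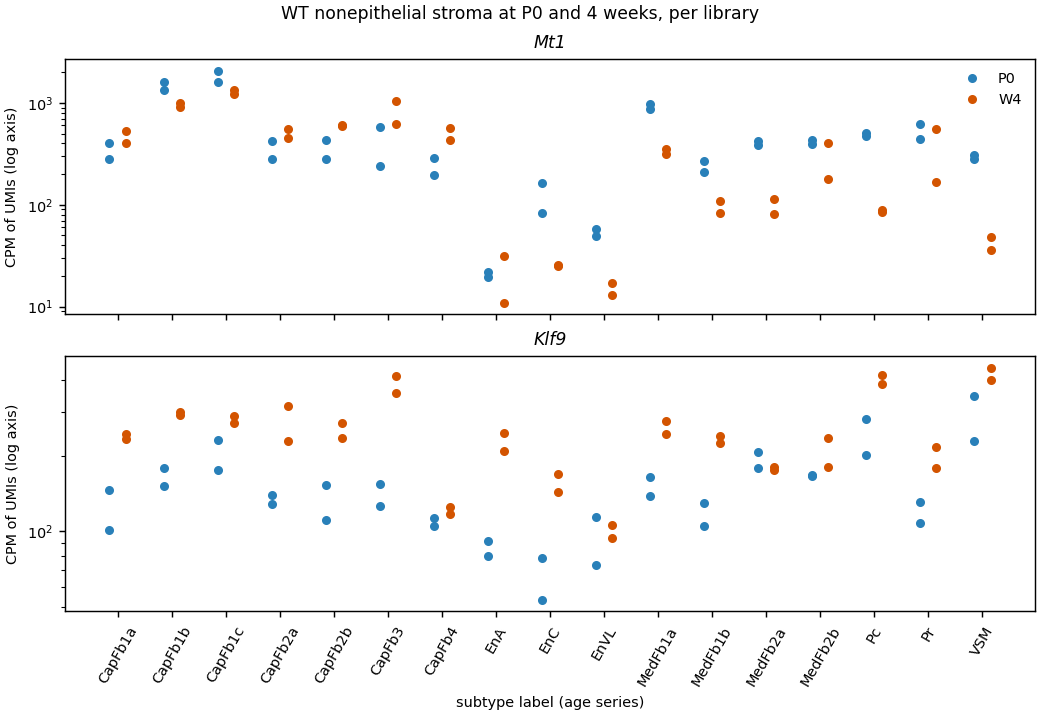
Level of Mt1 (upper panel) and Klf9 (lower panel) in 17 subtypes of WT nonepithelial stroma (y axis, CPM of UMIs on a log scale), with 1 point per library, P0 in blue and W4 in orange. Mt1 is lower at W4 in pericytes, smooth muscle and MedFb2a and higher in CapFb2b, CapFb3 and CapFb4, whereas Klf9 is higher at W4 without overlap in 15 subtypes.

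The bulk libraries gave a separate set of WT samples in which the change from P0 to 4 weeks could be tested, with edgeR's quasi-likelihood test and Benjamini-Hochberg adjustment over all genes. The members were chosen with earlier results of the series known, by a rule that names levels over ages in WT. Whether bulk values bore on that choice is not known. The p-values of members are thus no independent support for the list. Sgk1 fell in all 4 NETS populations, though in gp38+CD26+ cells only at the threshold, and Per1 fell in 3 of them and in cTEC. Klf9 rose in Ly51+gp38- cells and cTEC, and both metallothioneins rose in cTEC. In sorted bulk cells, fewer cells of a type and less RNA per cell cannot be told apart. The sources do not say which libraries came from separate animals, so the p-values measure only the spread between these libraries.

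Sgk1, the kinase, fell in all 4 NETS populations. In CD31+ cells the lowest, median and highest of 6 libraries were 862, 934 and 1274 CPM at P0 and 257, 302 and 405 at 4 weeks. The groups did not overlap, and the log2 fold change was -1.53 ± 0.15 (SE, adjusted p = 4.41e-05, edgeR). Sgk1 was the 1 member called among 6 tested in CD31+ cells, where 3.19% of all genes rose and 1.91% fell. In Ly51+gp38- cells it went from 60.9, 89.0 and 154 CPM to 13.48, 17.6 and 43.9 (-1.87 ± 0.37, adjusted p = 0.00372). In gp38+CD26- cells the values were 100, 183 and 231 at P0 and 64.0, 76.7 and 96.3 at 4 weeks (-1.09 ± 0.20, adjusted p = 0.00108), again with no overlap. The call in gp38+CD26+ cells (-1.30 ± 0.40, adjusted p = 0.0493) stood at the threshold and was lost when any 1 of 9 libraries was left out. The epithelium differed. In mTEC Sgk1 rose from 7.40, 19.4 and 33.9 CPM to 27.0, 56.9 and 75.0 (1.49 ± 0.40, adjusted p = 0.0425), a call that was lost with the label prefix as a term, and in cTEC the change was 1.65 ± 0.63 (adjusted p = 0.0759).

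Per1, the clock repressor, fell in 3 NETS populations and in cTEC. In gp38+CD26- cells it went from 35.4, 54.4 and 131.7 CPM (lowest, median and highest) to 1.22, 3.98 and 12.2, with no overlap (-3.54 ± 0.52, adjusted p = 0.000188). In Ly51+gp38- cells it went from 33.6, 46.3 and 109 to 0, 5.63 and 12.8 (-3.30 ± 0.89, adjusted p = 0.0260), and in gp38+CD26+ cells from 12.3, 34.3 and 66.9 to 1.71, 8.20 and 9.05 (-2.25 ± 0.50, adjusted p = 0.0103). The gp38+CD26+ call was kept in 16 other settings and lost in 3, among them with the library left out for low counts put back. The change in cTEC was -1.98 ± 0.41 (adjusted p = 0.00344). In CD31+ cells and mTEC the estimates were -2.92 ± 0.96 (adjusted p = 0.106) and -2.46 ± 1.07 (adjusted p = 0.232), which did not pass. Immediate early and dissociation-induced genes were lower at 4 weeks in the same libraries, with a sum in gp38+CD26- cells of 13322 to 19600 CPM at P0 and 1113 to 5976 at 4 weeks, and in cTEC of 8151 to 15237 and 962 to 3773. Their part in the change of Per1 was not tested.

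Tsc22d3, the leucine zipper gene, fell in gp38+CD26- cells from 238, 375 and 766 CPM to 153, 164 and 266 (-1.03 ± 0.26, adjusted p = 0.00998) and in Ly51+gp38- cells from 314, 531 and 816 to 193, 247 and 415 (-0.87 ± 0.21, adjusted p = 0.0142), with overlap in both. Klf9 rose in Ly51+gp38- cells from 305, 436 and 485 CPM to 459, 616 and 769 (0.70 ± 0.14, adjusted p = 0.00517) and in cTEC from 23.1, 35.1 and 85.8 to 69.02, 93.5 and 128.9 (1.23 ± 0.28, adjusted p = 0.00554), with overlap in both. The Klf9 estimates in gp38+CD26+ and gp38+CD26- cells were -0.35 ± 0.20 and -0.08 ± 0.23 (adjusted p = 0.302 and 0.844, edgeR). In CD31+ cells and mTEC they were 0.88 ± 0.41 and 0.55 ± 0.24 (adjusted p = 0.286 and 0.221). In the single-cell series Klf9 was higher at W4 without overlap in 15 of 17 subtypes, fibroblasts among them. Unlike its falls in bulk, Tsc22d3 was higher at W4 without overlap in 9 of these 17 subtypes and lower in 1. In single-cell pericytes the mean of Tsc22d3 was 150.7 CPM at P0 and 150.6 at W4. The reason for this difference between the sets was not tested. Fkbp5 fell in cTEC (-1.17 ± 0.35, adjusted p = 0.0264) from 26.5, 37.1 and 91.05 CPM to 10.8, 19.0 and 33.6. Nr3c1 and Zbtb16 passed in none of the populations in which they were tested. The estimates for Nr3c1 ran from -0.08 ± 0.47 in mTEC to 0.47 ± 0.23 in CD31+ cells. Zbtb16 was low, at a median of at most 9.86 CPM in any population and age.

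Marker RNA of other cells also moved with age in these libraries. Erythroid genes summed to 0 to 0.610 CPM at P0 and 27.4 to 3370 at 4 weeks in gp38+CD26- cells, to 0.187 to 2.95 and 1159 to 3057 in gp38+CD26+ cells, to 7.57 to 342 and 298 to 7800 in CD31+ cells and to 8.51 to 48.3 and 575 to 4662 in mTEC. In Ly51+gp38- cells thymocyte markers summed to 5.47 to 29.5 CPM at P0 and 105 to 453 at 4 weeks, and epithelial markers to 0 to 16.52 and 5.25 to 151.1. Mesothelial markers in gp38+CD26+ cells went from 0 to 306 CPM at P0 to 397 to 4858. Beside the rise of Klf9 in Ly51+gp38- cells, the smooth muscle genes Acta2 (1.91 ± 0.18, adjusted p = 1.28e-05) and Myh11 (1.72 ± 0.18, adjusted p = 3.57e-05) rose and the pericyte gene Kcnj8 fell (-0.72 ± 0.20, adjusted p = 0.0272), and mural markers summed to 3001 to 4117 CPM at P0 and 5848 to 7081 at 4 weeks. Their part in the member changes was not tested.

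The metallothioneins moved apart by population. Their bulk levels were low, with at most 1.88 CPM of Mt1 in cTEC at P0. The 5 epithelial subtypes of the newborn WT single-cell libraries averaged 451, 690 and 633 CPM of Mt1. The reason for this gap between the sets was not tested. In cTEC Mt1 rose from 0.0807, 1.53 and 1.88 CPM to 7.31, 10.4 and 16.6 (3.22 ± 0.60, adjusted p = 0.00169) and Mt2 from 0.323, 0.540 and 1.81 to 2.26, 4.44 and 6.32 (2.55 ± 0.57, adjusted p = 0.00512), both without overlap. In gp38+CD26- cells Mt2 fell from 2.12, 2.42 and 5.14 CPM to 0.129, 0.757 and 1.38 (-1.80 ± 0.58, adjusted p = 0.0345), a call lost with no filter on low counts, with either prefix alone and in 1 fit over all groups at log2 changes of -1.67 to -1.91, while Mt1 changed by -0.96 ± 0.35 (adjusted p = 0.0621). Markers of other cells were higher in the cTEC libraries at 4 weeks. Thymocyte markers summed to 575 to 2609 CPM there against 31.005 to 58.3 at P0, with all 12 called higher, fibroblast markers to 333 to 1758 against 12.6 to 123, and erythroid genes to 33.5 to 1411 against 0 to 1.81. Their part in the cTEC values was not tested.

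**Figure D5:**
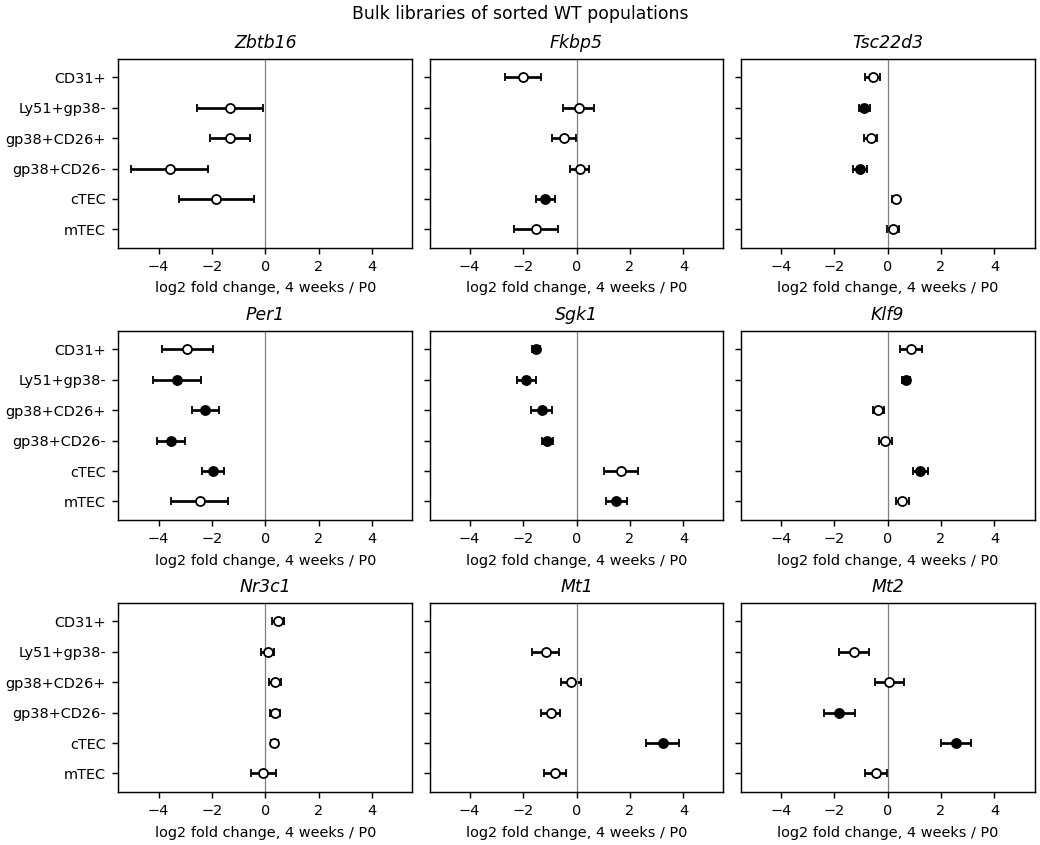
Change of each of the 9 genes from P0 to 4 weeks (x axis, log2 fold change of edgeR) in 6 sorted WT populations (y axis), with bars for ± SE and filled points for an adjusted p under 0.05. Sgk1 lies left of 0 in the 4 NETS populations and right of 0 in cTEC and mTEC, and Per1 lies left of 0 in all 6.

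Calls among the members were 1 higher and 3 lower of 9 in Ly51+gp38- cells, where 6.44% of all genes rose and 5.45% fell, and 0 and 2 of 9 in gp38+CD26+ cells (7.27% and 5.93%). They were 0 and 4 of 9 in gp38+CD26- cells (12.9% and 11.5%), 3 and 2 of 9 in cTEC (12.3% and 9.99%) and 1 and 0 of 8 in mTEC (3.64% and 2.35%). The median log2 change of the members tested was -1.15 in Ly51+gp38- cells, -1.05 in CD31+ cells, -1.03 in gp38+CD26- cells, -0.47 in gp38+CD26+ cells, -0.26 in mTEC and 0.33 in cTEC, against medians from -0.09 to 0.01 over all genes. The library labels carried the prefix TXCK or DFCK, with 3 libraries of each per population and age, and its meaning was not given in the sources used here. At P0 the DFCK mean was higher in 34 of 36 pairs of a population and one of Zbtb16, Fkbp5, Tsc22d3, Per1, Sgk1 and Klf9, and in 4, 3 and 2 of 6 populations for Nr3c1, Mt1 and Mt2. Pairs of 1 population share its libraries, and the share over all genes was not worked out, so nothing about the members is read from this count. Within each prefix Sgk1 still fell in CD31+ cells (1098 to 286 CPM in TXCK and 893 to 358 in DFCK) and Per1 in gp38+CD26- cells (51.6 to 4.93 and 75.3 to 5.09), though the call for Sgk1 was lost with DFCK alone (-1.23). With TXCK alone the log2 change was -0.57 for Tsc22d3 and -0.71 for Sgk1 in gp38+CD26- cells and -0.54 for Fkbp5 and -1.05 for Per1 in cTEC, and with DFCK alone it was 0.75 for Klf9 in cTEC, none of them called. Fkbp5 in cTEC was called with DFCK alone at -1.83.

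The difference between epithelium and NETS in the change with age was tested itself, as the mean change of cTEC and mTEC minus the mean change of the 4 NETS populations (edgeR). It was positive for Sgk1 (3.03 ± 0.35, adjusted p = 2.67e-09), Mt2 (2.83 ± 0.51, adjusted p = 0.000102), Mt1 (1.95 ± 0.48, adjusted p = 0.00474) and Tsc22d3 (1.02 ± 0.22, adjusted p = 0.000795). The NETS mean takes in CD31+ cells, where neither metallothionein had enough counts to be tested alone. There Mt1 was at most 1.52 CPM at P0 and 0.781 at 4 weeks, and Mt2 at most 0.622 and 0. The size of the difference for these genes rests in part on those values. For the metallothioneins cTEC and mTEC differed in sign. Against 3.22 and 2.55 in cTEC, the estimate in mTEC was -0.81 ± 0.42 for Mt1 (adjusted p = 0.343) and -0.44 ± 0.41 for Mt2 (adjusted p = 0.689), neither of which passed. By this test 4 of 9 members were higher and 0 lower, against 3.96% and 2.86% of all genes. The other members did not pass, with Per1 at 0.80 ± 0.69 (adjusted p = 0.778) and Klf9 at 0.61 ± 0.25 (adjusted p = 0.146). The part of the marker RNA given above in this difference was not tested.

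Of 29 other glucocorticoid-induced genes, 11 fell and 4 rose of 28 tested in gp38+CD26- cells, 7 fell and 4 rose of 28 in gp38+CD26+ cells, 7 fell and 1 rose of 27 in Ly51+gp38- cells, and 3 fell and 1 rose of 24 in CD31+ cells. In cTEC 8 fell and 1 rose of 23, and in mTEC 2 rose and 0 fell of 27. Cdkn1c, a cell cycle inhibitor, fell in the 4 NETS populations, by 4.95 ± 0.35 on the log2 scale in gp38+CD26- cells (adjusted p = 2.37e-07, edgeR). Hif3a fell in the 3 populations in which it was tested. Among receptor partners and enzymes, Hsd11b1, which regenerates active hormone from its inert form, rose in 4 of 5 populations tested (adjusted p of at most 0.00776), with 4.10 ± 0.27 in gp38+CD26- cells (adjusted p = 1.28e-07), 1.31 ± 0.28 in gp38+CD26+, 1.18 ± 0.23 in Ly51+gp38- and 5.07 ± 1.11 in cTEC. Hsd11b2, which inactivates the hormone, did not pass in any of 3. The clock list does not hold Per1. Of its genes, the repressors Nr1d1 and Bhlhe41 rose in gp38+CD26- cells by 2.22 ± 0.30 (adjusted p = 9.66e-05, edgeR) and 3.83 ± 0.45 (adjusted p = 2.96e-05). Per2 fell there (-4.01 ± 1.15, adjusted p = 0.0195). Over the 16 clock genes, 5 rose and 3 fell of 15 tested in gp38+CD26- cells, 3 rose and 2 fell of 14 in cTEC, and 0 were called of 12 in CD31+ cells. Receptor partners and enzymes had 2 calls higher and 1 lower of 14 in gp38+CD26- cells and 0 in CD31+ cells and mTEC. Metal and oxidative stress genes had 1 call higher and 1 lower of 9 in cTEC, where both metallothioneins rose, and hypoxia genes 0 higher and 3 lower of 8. Of the steroid synthesis genes, Star alone was called, higher in gp38+CD26- cells (3.70, adjusted p = 0.0353). The hour at which tissue was taken was not given in the sources used here, and its part was not tested.

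Between libraries of 1 population and age, members varied together only weakly. After centring log2(CPM + 1) within each group, the median correlation of the 36 pairs of members over 83 bulk libraries was 0.160. The highest were Mt1 with Mt2 (0.458), Tsc22d3 with Klf9 (0.442), Zbtb16 with Fkbp5 (0.434) and Fkbp5 with Klf9 (0.432). Of 11875 genes with a mean of at least 5 CPM, those most like the mean of Zbtb16, Fkbp5, Tsc22d3, Per1, Sgk1 and Klf9 were Rbpms (0.573), Bbx (0.520), Hsp90b1 (0.506), Naf1 (0.499) and Zbtb44 (0.498). The libraries share sorts, prefixes and depth, and centring within prefix as well moved the median of the pairs to 0.183 and left only Bbx and Rbpms among the 5 most alike genes, after Usp25, H2-T10 and Atad5.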

How the data were processed

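Single-cell values were UMI counts per gene and cell as deposited, with the authors' subtype labels. The authors aligned reads with Cell Ranger 3.1.0 and, per the study's methods, removed cells by gene number and mitochondrial share, doublets and contaminant clusters. Bulk values were deposited gene counts, made by the authors with STAR 2.5.3a and HTSeq on mm10. In the libraries used, 7.81% to 16.6% of the reads were in entries of no gene, which were left out. The share was 29.4% in the library of 25702 counts that was not used. UMIs were summed per library and subtype, since libraries and not cells are replicates. Tests used edgeR 4.0.16 (quasi-likelihood, TMM factors, its filter on low counts, R 4.3.3), with adjusted p under 0.05 called. Newborn fits needed at least 20 cells in each library, levels at least 5 (20 for the order of subtypes), and bulk libraries at least 1000000 counts. Pairs without overlap in the age series needed a mean of at least 5 CPM. Symbols were given for 37607 of 39179 bulk gene IDs. Alternatives were DESeq2 1.42.0, other normalization and filters, prefixes, the replicate block and single libraries left out. The members and lists were chosen with earlier results of these data known. All members are named, and of every other list the 3 genes with the largest mean bulk change were eligible.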

Additional observations from a re-analysis of the deposited data

Results flagged for a closer look

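In 18 groups of bulk libraries (14.5% of the groups tested), 1 library lay far from the others of its population and age by Dixon's criterion. Chance meets it in about 1 in 20 groups of normally distributed values. Untransformed CPM need not be so distributed, so no excess is read from the 14.5%. The library was DFCK replicate 4 at P0 in 6 of them, over 5 populations, and DFCK replicate 1 at 4 weeks in 4, over 4 populations, where replicate numbers only name libraries within a population, and whether these share a source is not given in the sources used here. In CPM, with the nearest other library in brackets, Tsc22d3 was at 1165 (672) in CD31+ cells, 766 (414) in gp38+CD26- cells and 449 (246) in mTEC at P0, and at 415 (276) in Ly51+gp38- cells at 4 weeks. Klf9 in cTEC at P0 was at 85.8 (43.2), and Zbtb16 was at 31.1 (12.1) in Ly51+gp38- cells at P0 and at 3.59 (0) in mTEClo at 4 weeks. Per1 was at 131.7 (61.2) in gp38+CD26- cells at P0. Nr3c1 was at 207 (109) in CD31+ cells, 232 (146.2) in gp38+CD26- cells and 61.4 (31.05) in mTEC at P0, lowest at 56.1 (112.9) in gp38+CD26+ cells at P0, and at 245 (142) in CD31+, 254 (166.9) in gp38+CD26- and 203 (136.5) in gp38+CD26+ cells at 4 weeks. Mt2 was at 5.14 (2.98) in gp38+CD26- cells at P0, and at 1.49 (0.589) in Ly51+gp38- cells and 14.0 (8.86) in mTEChi at 4 weeks.

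The change with age differed between epithelium and NETS by a test of the difference itself (edgeR, log2 scale) for Sgk1 (3.03), Mt2 (2.83), Mt1 (1.95) and Tsc22d3 (1.02). For Mt1 and Mt2 the changes in cTEC (3.22 and 2.55) and mTEC (-0.81 and -0.44) differed in sign, and that difference was not tested. Both genes were too low in CD31+ cells, part of the NETS mean, to be tested there alone.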

How the results depend on the processing

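Newborn calls of members, 6 as reported, numbered 13 with no filter on low counts, 10 with a replicate block and 4 to 11 with single libraries left out, 11 being without WT replicate 1. The replicate numbers did not pair the newborn libraries: same-numbered libraries correlated at 0.110, -0.0076 and -0.315, and not every library correlated best with its own number. Bulk calls in CD31+ cells, 1 as reported, were 0 with prefix DFCK alone, 3 with DESeq2 and 6 in 1 fit over all groups. In Ly51+gp38- cells 4 calls became 1 with TXCK alone and 0 with DFCK alone. In gp38+CD26+ cells 2 became 1 with RLE normalization, no filter or 1 fit, 0 with DFCK alone or with the shallow library put back, and 1 to 2 with single libraries left out. In gp38+CD26- cells 4 became 1 with TXCK alone, 2 with DFCK alone and 2 in 1 fit. In cTEC 5 became 2 and 3 with TXCK and DFCK alone. The falls of Per1 and Fkbp5 were lost with TXCK alone and the rise of Klf9 with DFCK alone. The mTEC call became 0 with no filter, the prefix as a term, TXCK alone or DFCK alone. A fit within a prefix has 3 libraries per age, or 2 for gp38+CD26+ DFCK at 4 weeks. Otherwise the cause was not tested. The 4 calls of the difference between epithelium and NETS were made under every alternative run. Of 159 settings of the 21 called single results, 114 kept the call, 45 lost it and 0 turned the direction. In 38 of 45 gene and age combinations the highest subtype was the same at minimums of 5 and 20 cells. Zbtb16, Mt1 and Mt2 had low counts in bulk, and the part of this in what was called was not tested.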
